A study of Rattus norvegicus with 12 samples.

Results

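The genes described here are 10 genes of fatty acid synthesis and desaturation in the rat liver, Scd, Fasn, Acaca, Acly, Srebf1, Thrsp, Elovl6, Fads1, Fads2 and Me1, which were chosen by name and are 10 of the 32883 genes in the deposited tables. They were followed in hepatocyte-like cells and nuclei by strain, by platform and by position along the liver lobule. Droplet libraries came from male rats of the Dark Agouti (DA) and Lewis (LEW) strains, and spatial libraries from Wistar rats, all given as healthy, with no treatment or engineered allele named in the labels. Total liver homogenate (TLH) cells, freed by collagenase digestion, gave 2 DA and 2 LEW libraries (10x version 2 chemistry), snap-frozen liver gave 2 DA and 2 LEW libraries of nuclei (version 3), an immune-enriched cell fraction gave 1 DA and 1 LEW library (version 3), and cryosections of Wistar liver gave 2 Visium libraries (version 1).

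The labels place the TLH rats at 8 to 10 weeks of age, while the deposited tables are named for 10-week-old DA, 13-week-old LEW and, in the immune-enriched libraries, 9-week-old rats, and the study's methods give an older range and describe the strains as matched for age. These sources conflict, and if the table names hold, age and strain cannot be told apart in the TLH cells. The study describes the nuclei as coming from additional rats, while their tables carry the same animal numbers as the TLH tables, so whether the animals differed was not settled. Filters left 3844 to 7112 TLH cells, 2205 to 5262 nuclei, 1163 and 2677 immune-enriched cells and 2429 and 2376 spots per library. Clustering without the genes under study named 4480, 4536, 4231 and 2873 hepatocyte-like cells in TLH DA-1, DA-2, LEW-1 and LEW-2, and 1966, 2084, 4942 and 2168 hepatocyte-like nuclei in the libraries of the same order. All 27 hepatocyte markers measured were detected in each of these 8 sums, where they made up 93000 to 142000 CPM, that is unique molecular identifiers (UMIs, counted transcripts) scaled to the same total in every sum. The median depth of a hepatocyte-like cell was 1819 to 2613 UMIs in TLH cells and 1525.5 to 2108 UMIs in nuclei.

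Hepatocytes turn surplus carbohydrate into fatty acids. Acly, ATP citrate lyase, splits citrate into cytosolic acetyl-CoA, and Me1, malic enzyme, supplies NADPH. Acaca, acetyl-CoA carboxylase, makes malonyl-CoA, from which Fasn, fatty acid synthase, builds palmitate. Elovl6 lengthens palmitate, Scd, stearoyl-CoA desaturase, introduces the first double bond, and Fads1 and Fads2 are the delta-5 and delta-6 desaturases of polyunsaturated fatty acids. Srebf1 encodes the SREBP-1 transcription factor, which acts downstream of insulin, and Thrsp (Spot 14) is a nuclear protein induced together with the lipogenic enzymes.

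Promoter windows of 300 bases, from 250 bases before to 50 after a gene's start, were available from RefSeq (GRCr8 assembly) for 7 of the 10 genes, all but Fasn, Acaca and Elovl6. Those of Scd, the gene with the clearest zonal difference, and of the regulators Srebf1 (2 starts) and Thrsp are shown 5′ to 3′ because their levels carry the comparisons that follow. Capitals mark CCAAT boxes (CCAAT) and GC boxes (GGGCGG) on either strand, and none of the motif strings contains another.
Scd, chr1:253231682-253231981, minus strand: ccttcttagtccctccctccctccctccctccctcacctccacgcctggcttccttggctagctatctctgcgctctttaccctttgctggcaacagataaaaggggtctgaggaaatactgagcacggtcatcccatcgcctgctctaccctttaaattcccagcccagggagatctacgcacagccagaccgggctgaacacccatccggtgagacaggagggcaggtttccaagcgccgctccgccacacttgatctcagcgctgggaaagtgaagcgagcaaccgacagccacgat
Srebf1, chr10:45529115-45529414, minus strand: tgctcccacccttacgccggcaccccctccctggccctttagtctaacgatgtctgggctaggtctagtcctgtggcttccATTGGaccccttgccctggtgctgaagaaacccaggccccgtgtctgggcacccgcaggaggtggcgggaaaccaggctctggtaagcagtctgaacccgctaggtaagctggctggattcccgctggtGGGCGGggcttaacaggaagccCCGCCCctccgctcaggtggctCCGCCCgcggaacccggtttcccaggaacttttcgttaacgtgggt
Srebf1, chr10:45518961-45519260, minus strand: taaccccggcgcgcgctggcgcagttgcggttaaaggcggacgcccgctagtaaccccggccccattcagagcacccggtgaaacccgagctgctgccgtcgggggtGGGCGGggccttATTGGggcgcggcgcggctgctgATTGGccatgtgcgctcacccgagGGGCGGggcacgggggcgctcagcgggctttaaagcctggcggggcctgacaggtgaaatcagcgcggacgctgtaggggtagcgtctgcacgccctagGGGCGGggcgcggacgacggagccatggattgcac
Thrsp, chr1:161138915-161139214, minus strand: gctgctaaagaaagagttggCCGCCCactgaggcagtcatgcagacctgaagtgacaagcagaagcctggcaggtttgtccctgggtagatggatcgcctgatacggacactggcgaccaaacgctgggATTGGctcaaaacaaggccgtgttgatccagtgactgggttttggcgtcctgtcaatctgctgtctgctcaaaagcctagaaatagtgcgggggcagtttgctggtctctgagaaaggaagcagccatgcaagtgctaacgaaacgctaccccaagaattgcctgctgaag
The Scd window held none of the 4 motifs searched. CCAAT boxes stood in the windows of 4 of the 7 genes (Acly, Srebf1, Thrsp and Fads1) and in 37.5% of all 33469 promoter windows, and GC boxes in 6 of the 7, all but Scd, against 33.1% of all windows. An E-box (CACGTG) and a sterol regulatory element core (TCACNCCA) were found in none of the 7, against 6.42% and 3.89% of all windows. These are descriptions of the letters in these windows and not of binding.

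Among the genes that supply acetyl-CoA and NADPH, Acly was higher in hepatocyte-like TLH cells of LEW than of DA rats. It stood at 195 and 175 CPM in DA and at 336 and 271 in LEW, so the strains did not overlap, and LEW exceeded DA by 0.74 ± 0.15 on the log2 scale (edgeR quasi-likelihood test, adjusted p = 0.0324). Leaving out any 1 of the 4 libraries ended the call, while the log2 difference stayed between 0.583 and 0.886. In nuclei Acly stood at 141 and 188 CPM in DA and at 240 and 206.5 in LEW, with a log2 difference of 0.50 ± 0.38 (adjusted p = 0.72) that was 0.237 without LEW-1 and 0.731 without LEW-2. The order of the strains was the same on both platforms, and the strain difference was larger in TLH cells by 0.28 ± 0.42 (adjusted p = 1.0). Me1 stood at 40.9 and 49.6 CPM in DA and 47.1 and 32.9 in LEW TLH cells, and at 23.9 and 23.0 in DA and 34.1 and 21.1 in LEW nuclei. The strains overlapped on both platforms.

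Fasn, the synthase itself, varied as much between rats of a strain as between strains. In TLH cells it stood at 132 and 114 CPM in DA and at 213 and 115 in LEW, and in nuclei at 129 and 229 in DA and 199 and 221 in LEW. TLH LEW-1 stood apart on the high side and nuclei DA-1 on the low side. Acaca was close to the floor in TLH cells, with 7 to 24 UMIs per library and 1.02 to 2.04 CPM. In nuclei it reached 41.2 and 48.2 CPM in DA and 32.5 and 31.2 in LEW, where the strains did not overlap but the log2 difference of -0.43 ± 0.28 did not pass the test (adjusted p = 0.678).

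Of the elongase and desaturases, Elovl6 differed most between strains. Its level in nuclei was 3.35 and 4.80 CPM in DA (15 and 24 UMIs) and 19.8 and 11.2 in LEW (190 and 65 UMIs), a log2 difference of 2.01 ± 0.44 that just missed the threshold (adjusted p = 0.0712) and lay between 1.35 and 2.45 over 11 alternatives, 5 of which called it, including DESeq2 (adjusted p = 0.0179) and the fits without DA-2 (0.0168) or without LEW-2 (0.0344). In TLH cells Elovl6 stood at 2.75 and 1.81 CPM in DA and at 8.80 and 3.20 in LEW, again without overlap (1.49 ± 0.50, adjusted p = 0.16), and the difference was 0.547 without TLH LEW-1 and up to 1.995 without TLH LEW-2. The order of the strains was therefore the same in the 8 libraries, on few UMIs.

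Scd showed the opposite order in TLH cells and no order in nuclei. In TLH cells it stood at 315 and 166 CPM in DA and at 86.2 and 120 in LEW, without overlap, a log2 difference of -1.19 ± 0.36 (adjusted p = 0.164). The result turned on which clusters were taken as hepatocytes: with a stricter naming rule, which leaves out 1328 cells of TLH DA-1 and 3311 of TLH DA-2, the difference was -1.71 ± 0.22 (adjusted p = 0.00231), and Acly, at 0.61 ± 0.17, was no longer called (adjusted p = 0.0508). Without TLH DA-2 the Scd difference was -1.55 (adjusted p = 0.00346). Over 13 alternatives it was negative in all 13, lay between -1.71 and -0.69, and was called in 5. In nuclei Scd stood at 195 and 324 CPM in DA and at 226 and 256 in LEW, so the LEW values lay between the DA values (-0.05 ± 0.40, adjusted p = 0.977). The difference of the strain differences between platforms was -1.09 ± 0.49 (adjusted p = 1.0), and lay between -1.457 and -0.62 with 1 library left out.

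Fads1 and Fads2 stood higher in the LEW libraries, without passing the test. Fads1 stood at 368 and 390 CPM in DA and 458 and 407 in LEW TLH cells, and at 335 and 535 in DA and 904 and 642 in LEW nuclei. The log2 differences were 0.21 ± 0.13 and 0.91 ± 0.44 (adjusted p = 0.385 and 0.528). The TLH difference of Fads1 turned to -0.026 with the stricter naming rule and was 0.134 to 0.295 with 1 library left out, and that in nuclei was 0.477 without LEW-1 and 1.25 without LEW-2. Fads2 was far scarcer, at 5.5 and 3.39 CPM in DA and 8.42 and 14.0 in LEW TLH cells, and at 14.1 and 29.6 in DA and 43.0 and 34.7 in LEW nuclei. LEW did not overlap DA for either desaturase on either platform, and Fads2 gave log2 differences of 1.36 ± 0.33 in TLH cells (adjusted p = 0.0696, called under 6 of 13 alternatives, among them without DA-1, 0.0435) and 0.91 ± 0.36 in nuclei (adjusted p = 0.404). With 1 library left out the Fads2 difference ranged from 0.973 (without LEW-2) to 1.713 (without LEW-1) in TLH cells and from 0.544 (without DA-1) to 1.468 (without DA-2) in nuclei.

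The regulator Srebf1 was likewise higher in every LEW library than in the DA libraries of its platform. In TLH cells it stood at 92.9 and 61.4 CPM in DA and at 200.1 and 105 in LEW, and in nuclei at 180 and 465 in DA and at 664 and 597 in LEW. The log2 differences were 1.01 ± 0.38 and 1.05 ± 0.49, neither past the test (adjusted p = 0.236 and 0.504). Srebf1 was called under 3 of 13 alternatives in TLH cells and under 0 of 11 in nuclei. With 1 library left out the Srebf1 differences ranged from 0.486 (without LEW-1) to 1.405 (without LEW-2) in TLH cells and from 0.58 (without DA-1) to 1.809 (without DA-2) in nuclei. Thrsp stood at 704 and 457 CPM in DA and 775 and 673 in LEW TLH cells, and at 1220 and 1800 in DA and 1613 and 1616 in LEW nuclei. On both platforms its DA and LEW values overlapped. How many of all genes had strains that did not overlap was not counted, so the separations given here have no background beside them.

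**Figure D1:**
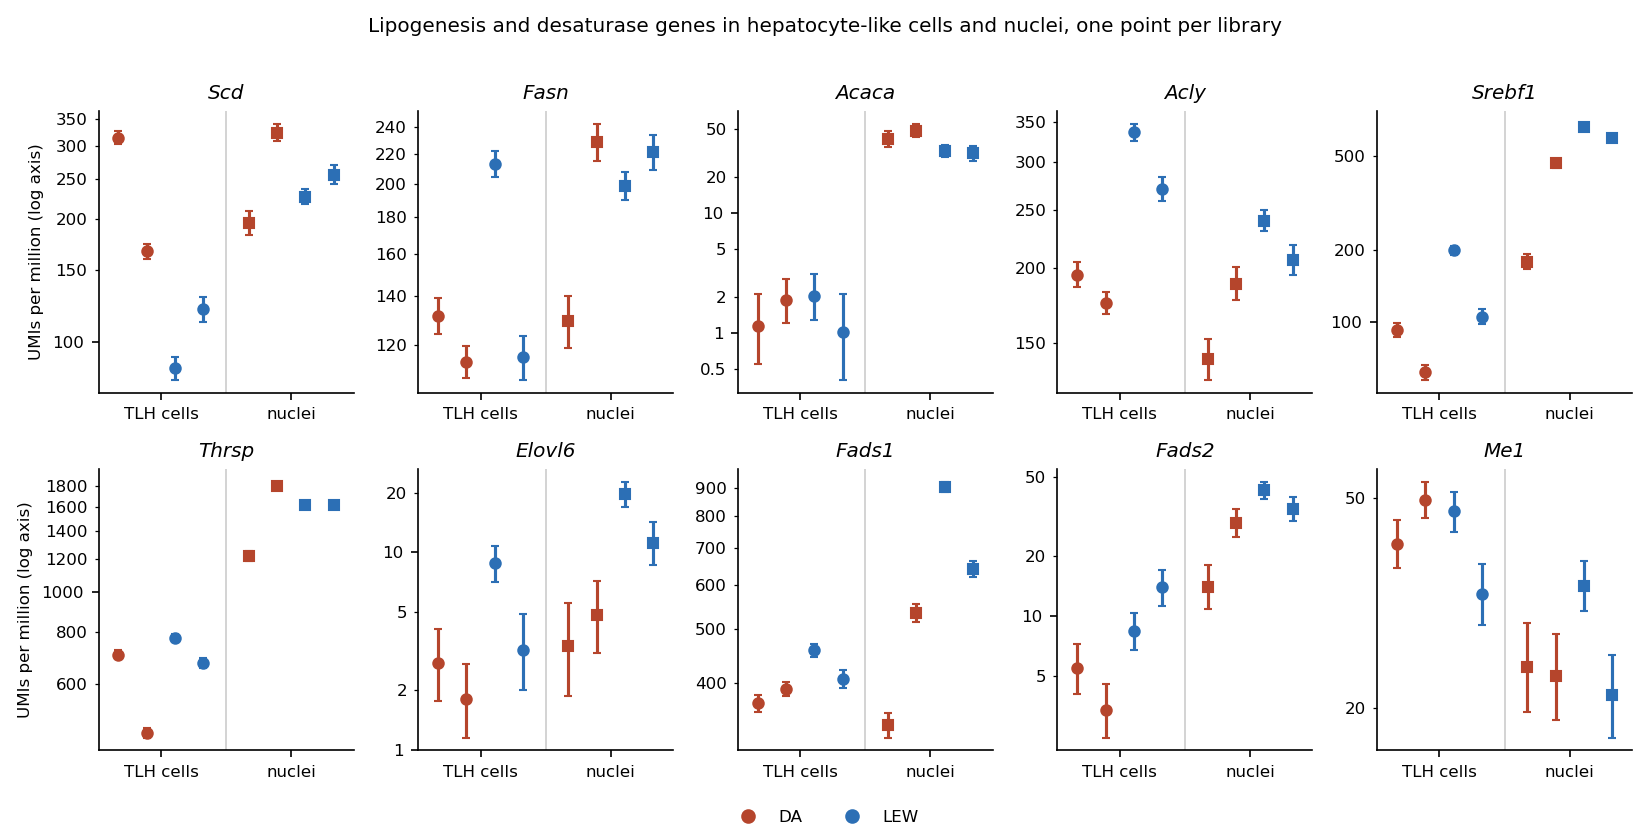
Level of each of the 10 genes in hepatocyte-like TLH cells (circles) and nuclei (squares), in UMIs scaled to a common total (CPM) on a log axis, 1 point per library (left to right DA-1, DA-2, LEW-1, LEW-2) with 95% Poisson intervals that cover counting error only. LEW points lie above DA points on both platforms for Acly, Srebf1, Elovl6, Fads1 and Fads2, of which only Acly in TLH cells passed the test. The share of all genes with strains apart in this way was not counted. Of the TLH points for Scd, DA-1 is the highest.

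Counted over the 10 genes, the edgeR quasi-likelihood test called 0 for strain in nuclei, where it called 0.957% of 10549 genes (0.389% higher in LEW, 0.569% lower). An unadjusted p under 0.05 was reached by 2 of the 10 (Elovl6 and Fads2), and DESeq2 called 1 (Elovl6), against 1065 and 232 of all genes. In TLH cells it called 1 of 10, Acly, against 4.25% of 9900 genes (2.03% higher in LEW, 2.22% lower), an unadjusted p under 0.05 was reached by 5, and DESeq2 called 4 (Scd, Acly, Srebf1 and Fads2), against 2088 and 394 of all genes. The median log2 difference of the 10 genes was 0.41 in nuclei and 0.40 in TLH cells, against 0.03 and -0.01 over all genes tested. On each platform 8 of 10 were positive, the exceptions being Scd and Acaca in nuclei and Scd and Me1 in TLH cells. The share of all genes with a positive difference was not counted. The test of whether the strain difference itself differed between platforms called 0 of the 10, against 0.00861% of 11621 genes, with 1 (Scd) at an unadjusted p under 0.05 and 0 called by DESeq2, against 531 and 11 of all genes.

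Some marker sums also lay apart by strain on each platform. In hepatocyte-like TLH cells the 27 hepatocyte markers summed to 105000 and 119000 CPM in DA and to 125000 and 126000 in LEW, and the 16 mesenchymal markers, none at 0, to 449 and 499 in DA and 640 and 896 in LEW. The 21 endothelial markers summed to 827 and 842 in DA and to 572 and 770 in LEW, with Stab1 at 0 in DA-2 and LEW-2. In nuclei these 3 sums overlapped between strains, while the 14 Kupffer cell markers, none at 0, summed to 153 and 92.3 in DA and to 190 and 186 in LEW. The Kupffer sums of TLH cells (647 and 535, against 538 and 811) overlapped, as did mitochondrial UMIs there, at 9.24% and 7.13% of the DA and 9.65% and 7.89% of the LEW sums. Their part in the strain differences was not tested.

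TLH cells and nuclei differed for 5 of the 10 genes, but so did 72.0% of the 11082 genes tested (34.4% higher in TLH cells, 37.6% lower), and chemistry, sequencer and dissociation differ with the platform and cannot be told apart. Acaca was lower in TLH cells, with a log2 difference of -3.72 ± 0.24, as were Srebf1 (-1.19 ± 0.29) and Fads2 (-1.19 ± 0.26, adjusted p = 1.13e-07, 0.00243 and 0.00118). Me1 and Acly were higher in TLH cells, by 1.58 ± 0.22 and 1.16 ± 0.20 (adjusted p = 3.54e-05 and 0.000171). All 5 of these calls held under each of 13 alternatives. Scd (0.20 ± 0.28), Fasn (0.42 ± 0.23), Fads1 (0.33 ± 0.24), Thrsp (-0.41 ± 0.22) and Elovl6 (-0.31 ± 0.35) did not pass the test. Of these, Thrsp was called under 2 and Fads1 under 1 of the 13 alternatives. Leaving out 1 library moved Fasn between 0.206 and 0.583 and Fads1 between 0.172 and 0.525.

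**Figure D2:**
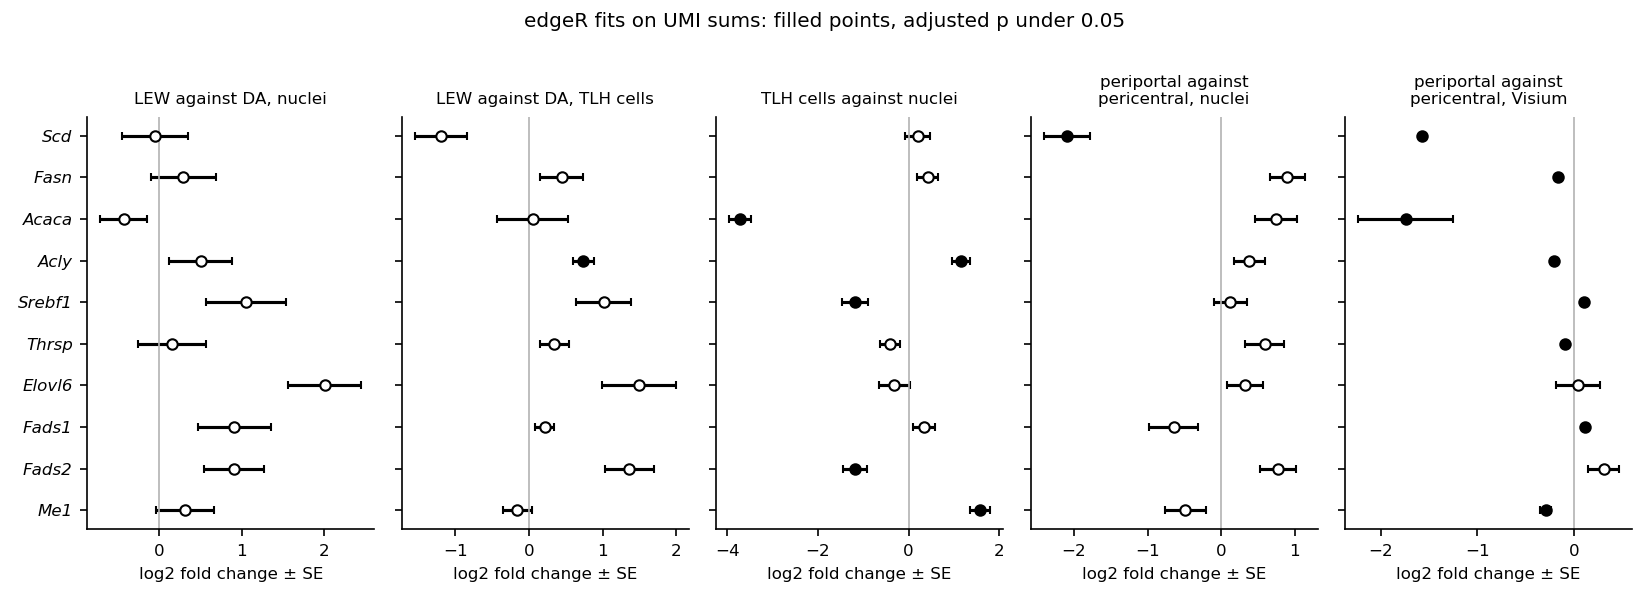
Log2 fold change ± SE of each of the 10 genes in 5 comparisons (edgeR on UMI sums), filled where the adjusted p is under 0.05. The filled points include Acaca for the platform (-3.72) and Scd for zone, at -2.10 in nuclei and -1.57 on Visium, while Elovl6 for strain in nuclei (2.01) is not filled.

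Genes of hepatocytes were also found in other cell types, where free RNA in droplets can add to a cell's own counts. Endothelial-like cells, which are not known for lipogenesis, held Alb, the gene of the main plasma protein of hepatocytes, at 52.6% to 78.2% of its hepatocyte-like level in TLH libraries and at 40.9% to 55.0% in nuclei. Scd stood at 35.5% to 80.7% of its hepatocyte-like level in endothelial-like TLH cells and at 36.0% to 72.7% in endothelial-like nuclei. Thrsp stood at 75.1% to 84.7% and at 59.8% to 99.0%. Fasn exceeded its hepatocyte-like level in endothelial-like nuclei of DA-1 (111%) and LEW-1 (127%). In the immune-enriched libraries (DA and LEW) the same shares were 0.863% and 8.38% for Scd and 2.56% and 16.9% for Alb. Hepatocyte markers had medians of 2.85% and 16.9% in these endothelial-like cells. Acly (14.0% and 18.0%) and Me1 (8.1% and 43.1%) lay above both medians, and Fasn (1.31% and 10.2%) and Scd below both. Srebf1 (8.86% and 14.7%), Fads1 (4.63% and 7.61%) and Thrsp (2.9% and 16.4%) lay above in DA and below in LEW. Acaca, Elovl6 and Fads2 were seen in few of these cells. Kupffer-like cells there (54 DA, 169 LEW) held hepatocyte markers at medians of 0.911% and 11.3%. Some of the genes stood above these: Srebf1 at 56.2% and 57.2%, Me1 at 127% and 74.4%, Fads1 at 22.9% and 38.6% and Acly at 21.7% and 32.6%. Scd (0.0% and 7.15%) and Thrsp (0.697% and 9.93%) stood below them.

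Endothelial-like TLH cells and nuclei also often held an Scd UMI. After each cell was thinned to 1500 UMIs, 11.4% to 29.6% of hepatocyte-like and 5.98% to 19.0% of endothelial-like TLH cells held an Scd UMI (18.0% to 34.8% and 11.3% to 27.6% before thinning, with median depths of 1819 to 2613 and 1650 to 2336 UMIs). In nuclei thinned to 1000 UMIs the shares were 17.3% to 26.3% and 7.09% to 23.6% (25.7% to 37.1% and 13.4% to 37.3% before thinning, with median depths of 1525.5 to 2108 and 1289 to 1685 UMIs). In nuclei LEW-2 the endothelial-like share of 23.6% (95% exact binomial interval 17.3% to 30.9%) equalled the hepatocyte-like share of 23.2% within counting error. The part of free RNA in the differences between libraries was not tested.

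**Figure D3:**
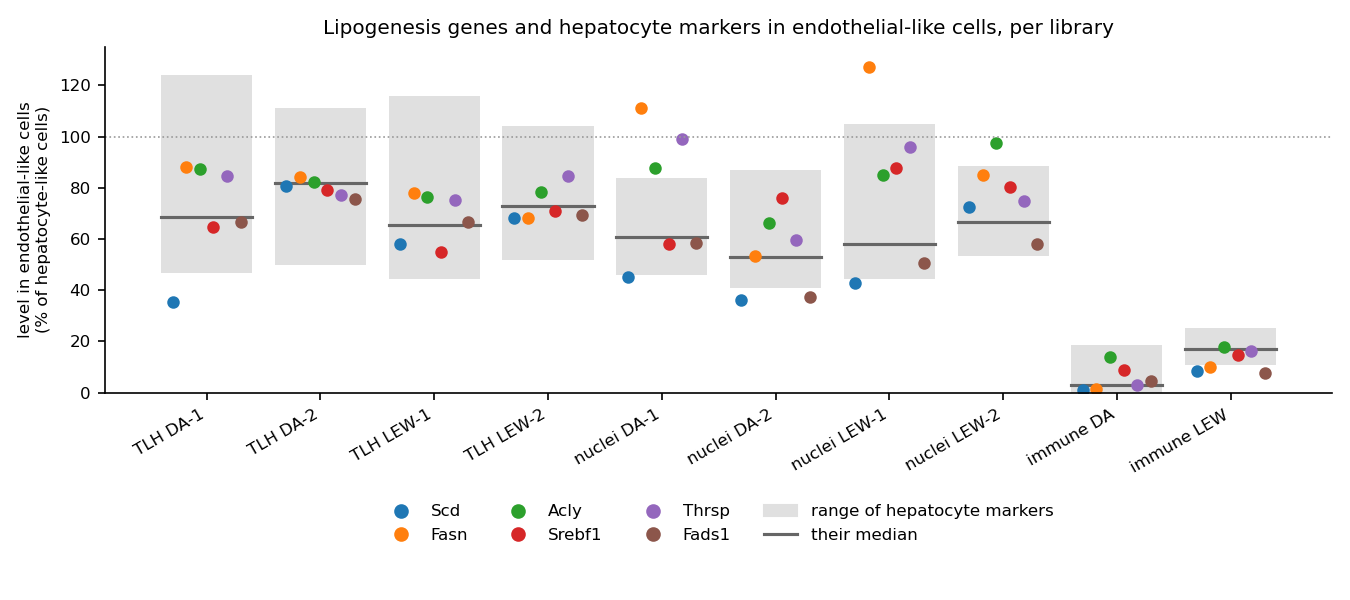
Level of 6 of the 10 genes in endothelial-like cells as a percentage of the level in hepatocyte-like cells of the same library, with the range (grey box) and median (line) of the hepatocyte markers above 100 CPM. In TLH and nuclei libraries the medians lie between 52.9% and 81.8%, and in the immune-enriched libraries at 2.85% (DA) and 16.9% (LEW).

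Along the lobule, from the portal tract to the central vein, hepatocytes divide their work, and lipogenesis is usually placed toward the central vein. Nuclei were ranked within each library by a score of 12 periportal genes (such as Ass1 and Hal) minus 12 pericentral genes (such as Glul and Cyp2e1), none of them among the 10, and the highest and lowest tertiles were summed. Scd was higher in the pericentral tertile of every library, at 373, 545, 298 and 385 CPM in DA-1, DA-2, LEW-1 and LEW-2, against 69.0, 116, 141 and 125 in the periportal tertile. The groups did not overlap, and the periportal minus pericentral log2 difference was -2.10 ± 0.31 (edgeR with the library as a block, adjusted p = 0.00357). Scd was the only 1 of the 10 genes called, against 4.4% of 9477 genes tested (2.06% higher on the periportal side, 2.34% lower). The call held under 12 of 13 alternatives and was lost without nuclei DA-2 (-1.90, adjusted p = 0.0546), and the difference shrank to -0.84 ± 0.19 when the study's own zone genes made the score (adjusted p = 0.0113).

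Most other genes of the pathway stood the other way in nuclei, without passing the test. Fasn was higher in the periportal tertile of all 4 libraries, at 179, 341, 230 and 289 CPM against 56.5, 102, 177 and 155 in the pericentral tertile. Its log2 difference of 0.90 ± 0.24 missed the threshold (adjusted p = 0.0552) and was called under 8 of 13 alternatives, among them without DA-1 (0.0476) and without LEW-1 (0.0216). Thrsp stood at 1776, 2429, 1884 and 1875 CPM in the periportal and at 589, 1152, 1582 and 1319 in the pericentral tertile (0.59 ± 0.27, adjusted p = 0.179), and Acly and Acaca were also higher in the periportal tertile of all 4 libraries (0.38 ± 0.21 and 0.75 ± 0.28, adjusted p = 0.264 and 0.122). So were Srebf1 (0.13 ± 0.22), Elovl6 (0.32 ± 0.25) and Fads2 (0.77 ± 0.25), of which Fads2 came nearest to the threshold (adjusted p = 0.0869, and 0.00703 without DA-1), and Acaca was called without LEW-1 (adjusted p = 0.0451). Fads1 (-0.65 ± 0.34, adjusted p = 0.236) was lower in the periportal tertile of both DA libraries and higher in that of both LEW libraries, and Me1 (-0.49 ± 0.28, adjusted p = 0.27) was lower in 3 of the 4, all but LEW-2. With the study's zone genes Fads1 stood the other way, at 0.612 (adjusted p = 0.117), and Acaca at -0.01. Leaving out 1 library moved Fads1 between -0.911 and -0.227, Me1 between -0.76 and -0.185 and Acaca between 0.449 and 1.044.

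Depth moved with the zone score. The periportal and pericentral tertiles had median depths of 2560 and 1307 UMIs in DA-1 and 2859 and 1497 in DA-2, against 1800 and 1442 in LEW-1 and 2284 and 2054 in LEW-2, and Alb stood at 41610 and 33320 CPM in the pericentral and at 20410 and 20760 in the periportal tertile of DA-1 and DA-2. In LEW nuclei Alb was not lower on the periportal side (38400 and 25290 CPM pericentral, 46140 and 25850 periportal), and on the sections it was higher there (90630 and 88250 against 106900 in each). When tertiles were drawn within 10 groups of similar depth, Scd gave a log2 difference of -1.40 ± 0.15 (adjusted p = 1.97e-07), and Fasn at 0.71 ± 0.15 and Fads2 at 0.91 ± 0.17 also passed the test (adjusted p = 0.00201 and 0.000732). Drawn in this way, Scd stood at 271, 419, 287 and 383 CPM in the pericentral tertiles and at 96.6, 174, 149 and 142 in the periportal tertiles, without overlap.

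The zonal difference was tested for a dependence on strain, with the interaction term called for 4 of the 10 genes and 12.3% of the 9477 genes (10.3% with a higher and 2.0% with a lower term in LEW). Scd fell less toward the portal side in LEW than in DA (1.35 ± 0.28, adjusted p = 0.00327), Acaca rose less (-1.34 ± 0.32, adjusted p = 0.00832), and the terms of Fads1 and Me1 were positive (1.43 ± 0.31 and 1.26 ± 0.34, adjusted p = 0.00395 and 0.0163). With tertiles drawn within the 10 depth groups these terms were 0.34, -0.75, 0.42 and 1.07, and none of the 4 passed the test (adjusted p = 0.459, 0.124, 0.296 and 0.0524). Nor did they without LEW-1 or without LEW-2, and Me1 also lost its call without DA-1. The terms kept their sign with any 1 library left out, at 1.044 to 1.635 for Scd, -1.913 to -1.047 for Acaca, 0.862 to 1.961 for Fads1 and 0.904 to 1.544 for Me1. Over all genes the 1166 calls fell to 12 without LEW-1, 115 without LEW-2, 132 with the study's zone genes and 230 within the depth groups, and rose to 2665 without DA-2. Fads1 went from 495 to 182.5 CPM in DA-1 and from 548 to 405 in DA-2 toward the portal side, and from 818 to 862 in LEW-1 and from 554 to 635 in LEW-2.

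On tissue sections the same score ranked whole spots, each of which covers several cells, so that fewer hepatocytes and less RNA per cell cannot be told apart. Scd was again higher on the pericentral side, at 1628 and 1485 CPM in the pericentral tertile of sections A and B against 593 and 454 in the periportal tertile. The log2 difference was -1.57 ± 0.029 (edgeR with the section as a block, adjusted p = 4.05e-86). In quintiles of the score Scd went from 1681 through 1511, 1103 and 796 to 499.5 CPM in section A and from 1536 through 1341, 958 and 623 to 395 in section B, a decrease at every step. In nuclei the second quintile held the most Scd in all 4 libraries, at 376.5, 710, 303 and 436 CPM, against 374.5, 421, 284 and 335 in the most pericentral quintile, although in DA-1 and LEW-1 the counting intervals of these quintiles overlapped.

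**Figure D4:**
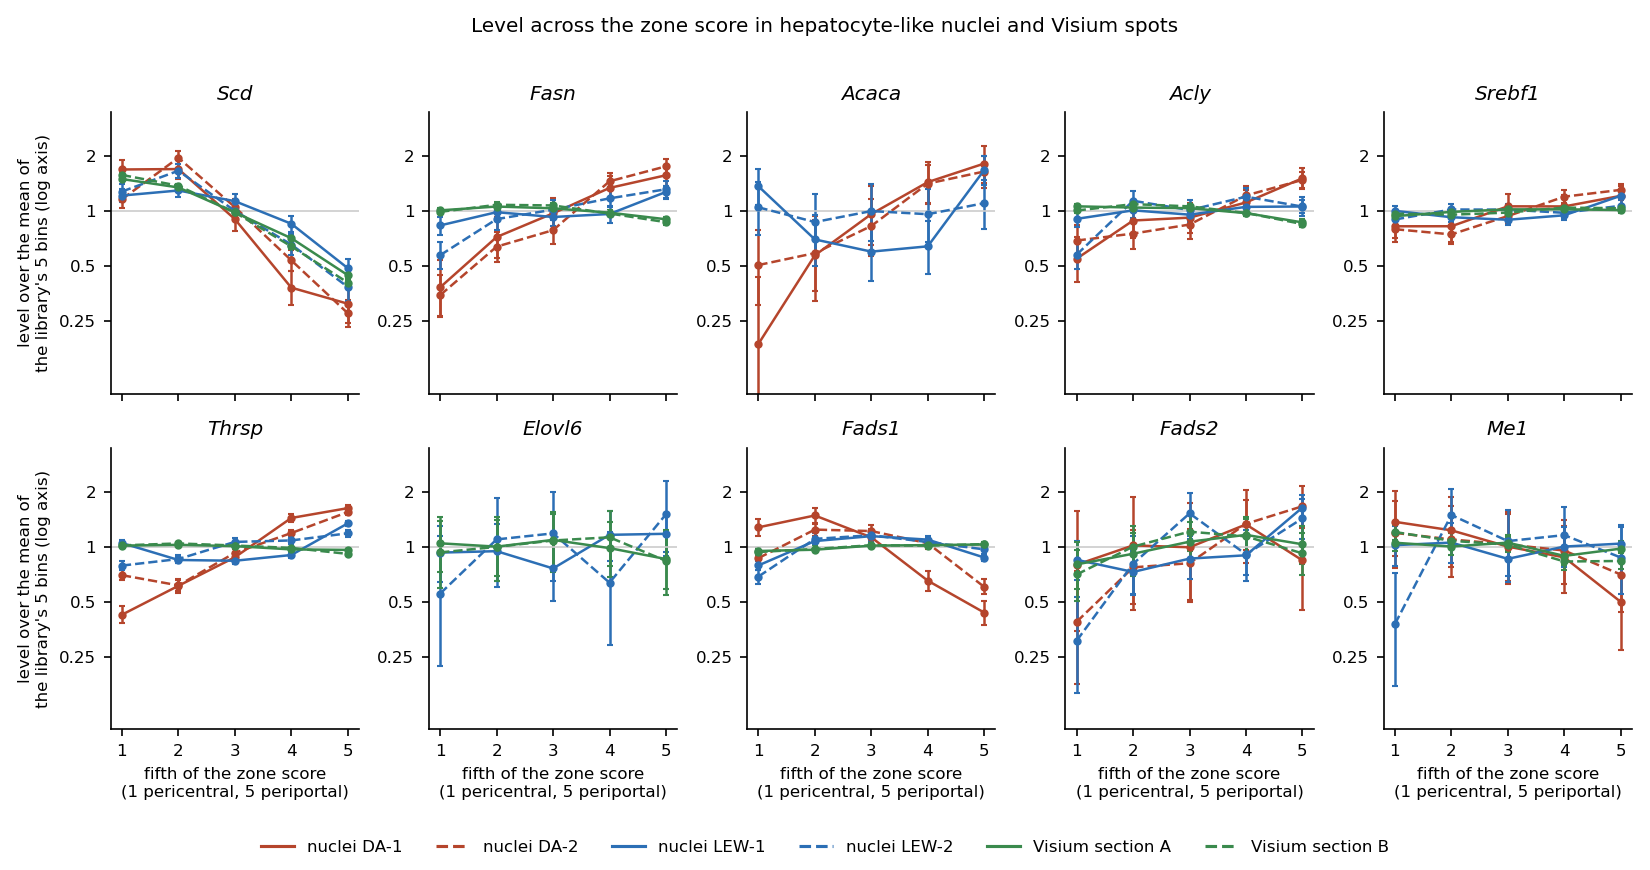
Level of each of the 10 genes across quintiles of the zone score in hepatocyte-like nuclei of 4 rats and in 2 Visium sections, divided by the mean of the library's 5 quintiles (log axis, bars are 95% Poisson intervals, libraries with under 50 UMIs left out). Scd falls from quintile 2 to quintile 5 in all 6 libraries, while Fasn rises at every step in the nuclei of both DA rats and LEW-2 and lies almost flat on the sections.

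Differences of the other genes across the sections were small, Acaca apart. Fasn was at 610 and 626 CPM in the pericentral and 554 and 541.5 in the periportal tertile, Acly at 458 and 474 against 393 and 406, and Thrsp at 1572 and 1710 against 1501 and 1556. These log2 differences of -0.17 ± 0.03, -0.21 ± 0.03 and -0.09 ± 0.02 passed the test (adjusted p = 8.52e-08, 1.65e-11 and 0.00225), as did Me1 (-0.30 ± 0.06), Fads1 (0.12 ± 0.03) and Srebf1 (0.11 ± 0.03). The Me1 difference came mostly from section B, at 68.1 CPM in the pericentral and 48.2 in the periportal tertile (-0.499 alone), against 52.5 and 49.2 in section A (-0.091), and Thrsp also differed between sections (-0.067 in A and -0.136 in B). In all, 8 of the 10 genes were called, against 15.0% of 9616 genes (7.97% higher on the periportal side, 7.01% lower), and Elovl6 and Fads2 were not. Acaca (-1.74 ± 0.49) rested on 40 UMIs in the 4 tertiles together, with a difference of -1.162 within section A and -2.644 within B. With 2 sections the spread is largely borrowed across genes, and DESeq2 called only 3 of the 10, Scd, Fasn and Acly.

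Spot by spot, none of the other genes described here was among the 10 genes whose levels followed Scd most closely. Over 7254 genes seen in at least 5% of spots, Cyp2c11, a male-specific cytochrome P450, had the highest mean Pearson correlation with Scd over the spots (0.621 over 2429 and 2376 spots), followed by Apoa2 (0.613), LOC100910877 (0.589), LOC100360095 (0.582), AABR07048474.1 (0.557), LOC501233 (0.532), Cyp2e1 (0.496), Slc27a5 (0.432), LOC259244 (0.427) and Sult1e1 (0.39). Cyp2e1 and Sult1e1 are genes of the pericentral score. Of the genes described here, Fasn ranked 46, Thrsp 54 and Acly 64, with correlations of 0.15 to 0.218, while Fads1 ranked 6946 (-0.0497 and -0.0715). Spots of a section share a library and their depth varies, so these values are descriptions.

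Within quintiles of the zone score, the correlation of Scd with Fasn remained at 0.184 and 0.212 and that with Thrsp at 0.178 and 0.159, close to the values over all spots. Scd itself correlated with the score at -0.528 and -0.581, while no other of the 10 genes measured went beyond 0.104 in size.

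Rats of 1 strain also differed. Nuclei DA-1 had the lowest level of the 4 nuclei libraries for 8 of the 10 genes, and TLH LEW-1 the highest of the 4 TLH libraries for 7. The share of all genes that were lowest or highest in a given library was not counted, so such ranks have no background beside them. From DA-1 to DA-2 nuclei, 8 of the 9 genes with a mean of at least 20 UMIs were higher, 2 of them (Srebf1 and Fads2) by over 2-fold, where 64.2% of 9070 genes were higher and 5.95% changed by over 2-fold in either direction. In the LEW nuclei 3 of 10 were higher in LEW-2 than in LEW-1, as were 66.7% of 9713 genes, and 0 of 10 changed by over 2-fold, against 13.7% of all genes. From TLH DA-1 to DA-2, 7 of 9 were lower, where 43.4% of 8796 genes were higher, and from TLH LEW-1 to LEW-2, 7 of 9 were lower, where 44.5% of 8375 genes were higher. Changes of over 2-fold were seen for 0 of 9 in the DA and 1 of 9 in the LEW TLH cells, against 3.22% and 2.97% of all genes. These are 2 rats each and carry no test.

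Values of a few feeding and clock genes, chosen after they were seen, are set beside these. Nuclei DA-1, low in most of the 10 genes, held Lpin1, a phosphatidate phosphatase, at 817 CPM against 85.9, 51.7 and 48.4 in DA-2, LEW-1 and LEW-2. The same library held the clock repressor Nr1d1 at 4.03 against 112, 67.2 and 177 CPM, and the clock output gene Dbp at 2.24 against 61.7, 34.9 and 302. TLH DA-2, lowest of the TLH libraries for 6 of the 10 genes, held Nr1d1 at 4.10 CPM against 60.5, 39.99 and 40.6 in DA-1, LEW-1 and LEW-2. Nuclei LEW-2 held the most Dbp and Per3 (306.7 CPM) of the nuclei libraries but was highest for none of the 10. Of the 13 fasting genes with at least 164 UMIs in both DA nuclei libraries, 9 were higher and 4 lower in DA-2 than in DA-1, from 0.513 times (Sds) and 0.609 (Irs2) to 2.09 times (Cyp4a1). This is near the share over all genes, of which 64.2% of 9070 were higher in DA-2, with a median log2 change of 0.142. Clock genes oscillate over the day in liver, and the part of the time of sampling or of feeding in the levels of the 10 genes was not tested.

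**Figure D5:**
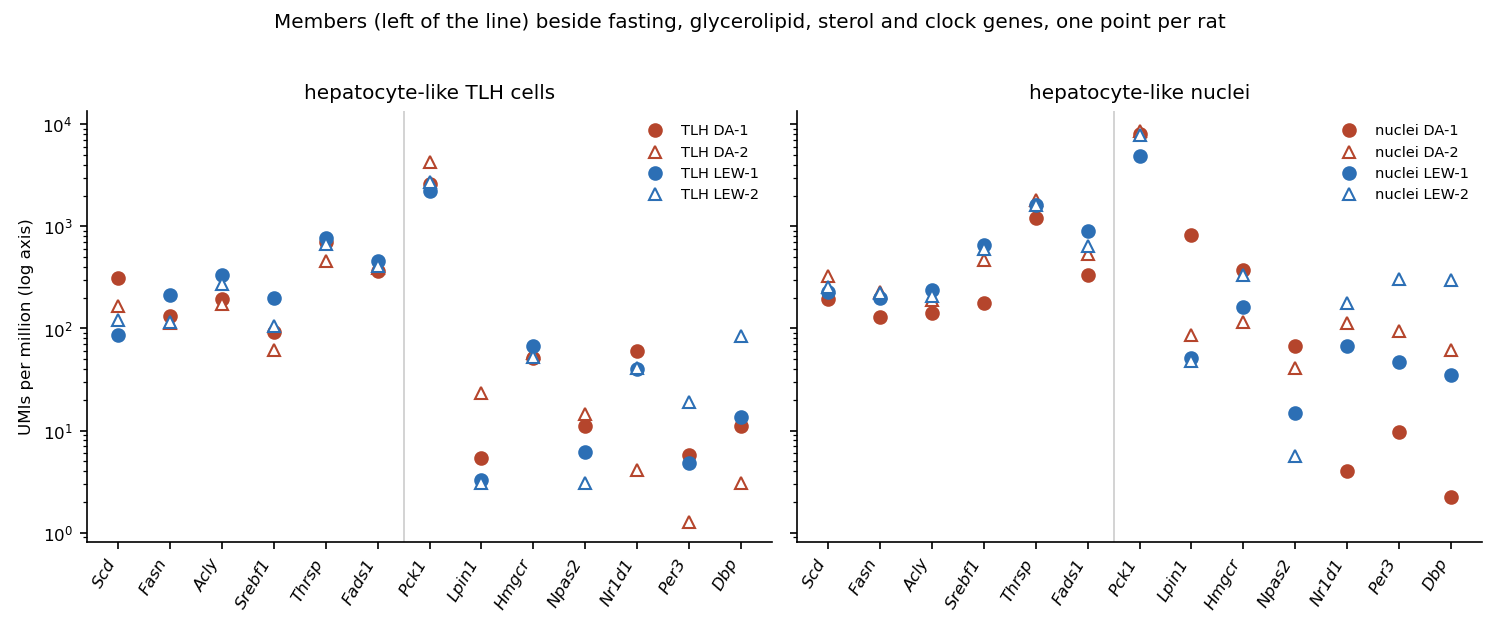
Level of 6 of the 10 genes (left of the grey line) and of 7 fasting, glycerolipid, sterol and clock genes (right) in hepatocyte-like TLH cells and nuclei, in CPM on a log axis with 1 symbol per rat. Nuclei DA-1 (filled red circle) lies lowest for the lipogenic genes shown and for Nr1d1, Per3 and Dbp, and highest for Lpin1.

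Other genes of the pathway were followed from fixed lists, against calls for 0.957% of all genes by strain in nuclei and 4.25% in TLH cells. Between strains in nuclei, 0 of 12 genes of lipogenic control, 0 of 11 of substrate and NADPH supply, 0 of 6 other elongases and desaturases, 0 of 12 of glycerolipid assembly, 0 of 13 of the clock and 0 of 12 of sterol synthesis were called, and of 15 fasting genes only Fgf21, a fasting hormone, rose in LEW (3.20 ± 0.43, adjusted p = 0.00573). In TLH cells Fgf21 rose as well (1.99 ± 0.37, adjusted p = 0.0256). The fasting list as a whole leaned the other way, with 1 of 15 genes positive and a median log2 difference of -0.57 in nuclei and 3 of 15 and -0.42 in TLH cells, against 0.03 and -0.01 over all genes tested. There Acacb, the mitochondrial acetyl-CoA carboxylase, fell in LEW by 1.69 ± 0.21 (adjusted p = 0.00512), with 2 of 11 genes of substrate supply called. Ehhadh, a peroxisomal oxidation enzyme, fell by 2.78 ± 0.28 and was the only other fasting gene called. Elovl2 (1.34 ± 0.19), Pnpla3 (1.199 ± 0.181) and Idi1 (0.77 ± 0.15) rose, 1 gene each of the elongase, glycerolipid and sterol lists, while 0 of 12 genes of lipogenic control and 0 of 12 of the clock were called.

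For the lists along the zone score, the shares of all genes called were 2.06% higher and 2.34% lower on the periportal side in nuclei and 7.97% and 7.01% on the sections. Pnpla3, a lipid droplet protein, rose toward the portal side in nuclei (1.31 ± 0.31, adjusted p = 0.0376) and fell on the sections (-1.13 ± 0.06, adjusted p = 7.48e-67), 1 of 12 and 4 of 13 glycerolipid genes being called. On the sections 5 of 11 genes of substrate supply fell toward the portal side, including Pklr, pyruvate kinase (-0.40 ± 0.03), and 1 rose, while in nuclei 0 of 11 were called. Of the fasting genes, 8 of 13 rose and 3 fell on the sections, with Pck1, the gluconeogenic carboxykinase, at 0.71 ± 0.02, and 2 of 14 rose in nuclei, Ppargc1a (2.21 ± 0.45) and Fgf21 (1.29 ± 0.29). Insig1, which retains SREBP in the endoplasmic reticulum, rose on the sections (0.37 ± 0.04, adjusted p = 4.7e-20), with 1 of 12 genes of lipogenic control higher and 2 lower. Of the other elongases and desaturases, 1 of 7 was called there (Elovl2, 0.56 ± 0.08), and 1 of 11 clock genes was higher (Per2) and 1 lower (Nr1d1), while 3 of 12 sterol genes were higher and 2 lower. In nuclei 0 of 11 genes of lipogenic control, 0 of 6 elongases and desaturases and 0 of 12 sterol genes were called, and of 13 clock genes only Per1 was (1.98 ± 0.48, adjusted p = 0.0414). The zone by strain term, called higher for 10.3% of all genes, was called higher for 1 of 11 genes of lipogenic control (Insig2), 4 of 11 of substrate supply, 2 of 6 elongases and desaturases, 3 of 12 of glycerolipid assembly and 4 of 12 sterol genes, and for none of 14 fasting or 13 clock genes. As given above, calls of this term over all genes fell to between 12 and 230 without either LEW library, with the study's zone genes or within depth groups. The strain by platform term was called for none of any list. Between platforms, where 34.4% of all genes were higher and 37.6% lower in TLH cells, 7 of 11 genes of substrate supply were higher and 2 lower in TLH cells, against 3 and 5 of 12 for lipogenic control, 3 and 3 of 7 for elongases and desaturases, 2 and 4 of 13 for glycerolipid assembly, 1 and 7 of 15 for fasting, 0 and 6 of 14 for the clock and 5 and 2 of 12 for sterol synthesis.

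The immune-enriched libraries, 1 per strain and so without a test, held 237 DA and 1019 LEW hepatocyte-like cells, with median depths of 9081 and 34458 UMIs and 33.7% and 29.7% mitochondrial UMIs. Scd stood there at 177 CPM in DA and 534 in LEW, 3.01 times as high, against the lower LEW level in TLH cells. Acly stood at 142 and 186 CPM, Srebf1 at 86.4 and 108 and Thrsp at 422 and 323.5. The other 6 genes stood in LEW at 0.974 to 1.11 times their DA level. With 1 library of each strain, no spread between rats can be set beside these values.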

How the data were processed

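The deposited files hold raw UMI counts per gene and barcode, which the authors made with Cell Ranger 3.1.0 and, for the sections, Space Ranger 1.1.0, per the labels and the study's methods, on a custom Rattus norvegicus reference. Whether intron reads were counted is not given in the sources used here. Gene names of the TLH and immune-enriched tables were taken by row from the nuclei tables. Cells were kept at 1500 to 2000 UMIs or more in TLH, 1000 in the other libraries and on spots. For TLH LEW 2000 was used in place of the study's stated 1500, since it gave the authors' cell numbers. Mitochondrial limits were 20% to 40% in TLH, 50% in immune-enriched cells and 10% in nuclei. Nuclei libraries shared 1 to 6 kept barcodes. Groups came from the labels.

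Cells were clustered in scanpy 1.11.5 (2000 variable genes, 20 components, 20 neighbours, leidenalg 0.10.2 at resolution 1.0) without the genes under study, listed genes or mitochondrial genes. A cluster was named from at least 3 markers among its 30 leading genes, seen in at least 25% of its cells, with a second comparison against other named classes at a fold of 1.3. That second rule was set after cluster names and cell numbers were seen, with 4 versions tried (the top 100 genes, and folds of 1.5, 1.2 and 1.3, of which 1.2 and 1.3 gave the same names), before values of the 10 genes were computed. A fold of 1.5 is an alternative. Doublets were not removed, and leaving out the 6% highest Scrublet scores is an alternative.

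UMIs were summed per library and class and tested in edgeR 4.0.16 (R 4.3.3, quasi-likelihood test, TMM, filter on low counts, Benjamini-Hochberg over all genes, threshold 0.05), with DESeq2 1.42.0 as an alternative. The ± after a log2 difference is its standard error, from the fold and the F value. Zone tests used the library as a block. Tertiles were the highest and lowest of the zone score within a library. P-values of the strain and platform tests measure the spread between the labelled libraries of a group. Those of the zone tests measure how far the difference between tertiles varies from library to library. Tests that join TLH cells and nuclei took the 8 libraries as independent animals, which was not settled. In every fit edgeR also drew on the spread of other genes, and on the sections the spread is largely borrowed across genes. The deposited tables hold 61441846 to 92484173 UMIs per TLH library, 8039397 to 15186970 per nuclei library, 48255870 and 60005133 in the immune-enriched libraries and 34449562 and 34827603 in the sections, which sets the precision. Poisson and exact binomial intervals (95%) cover counting error only. On simulated counts with 200 genes changed by a log2 of 2, the fits recovered 96.5% for strain in nuclei and in TLH cells, 99.5% for zone in nuclei, 65.5% for zone by strain and 96% for zone on Visium. For strain by platform 64.5% were recovered, and for TLH cells against nuclei 99.5%. The simulation used a fixed dispersion of 0.05 and well-counted genes, so it does not show how often smaller differences would be found.

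The 10 genes and all gene lists were chosen with earlier results of these data known. Named were the 10 genes, up to 3 called genes of each list in each direction by fold, and the 10 genes most correlated with Scd over spots, among genes in at least 5% of spots. Alternatives were DESeq2 size factors, DESeq2, no filter, each library left out, the replicate block, stricter or looser cell limits, other zone scores, depth groups and thinning. The depth groups, the naming fold, the crossed pairing and the study's zone genes in the zone by strain test were chosen after seeing the data. Acsm1, Col1a2, Cyp3a23-3a1, Hba-a1, Hbb-b1, Mlxipl, Pecam1, Pgd, Pkhd1 and Timd4 of the fixed lists were not analysed here, nor were Apoc1 and Mup4, whose names are duplicated. Some genes counted in the lists are not reported here by name. Sds was left out of the list counts by zone, since it is in the zone score.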

Additional observations from a re-analysis of the deposited data

Results flagged for a closer look

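The zonal difference of 4 genes in nuclei differed between strains by the test of the difference itself, an interaction term in edgeR that was also called for 1166 of 9477 genes (12.3%). On the log2 scale LEW minus DA, the term was 1.348 for Scd, -1.336 for Acaca, 1.425 for Fads1 and 1.262 for Me1. None of the 4 was called with tertiles drawn within 10 depth groups, with the study's zone genes, or without LEW-1 or LEW-2. Leaving out 1 library kept the signs, at 1.044 to 1.635 for Scd, -1.913 to -1.047 for Acaca, 0.862 to 1.961 for Fads1 and 0.904 to 1.544 for Me1. Over all alternatives the lowest term of Scd was 0.335.

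Fasn, Acaca, Acly and Thrsp were higher in the periportal tertile of all 4 nuclei libraries and lower in that of both Visium sections. The log2 differences in nuclei were 0.896 for Fasn, 0.746 for Acaca, 0.382 for Acly and 0.592 for Thrsp, against -0.165, -1.744, -0.211 and -0.092 on the sections. Acaca had only 28 and 26 UMIs over all spots of sections A and B, and in nuclei it was -0.01 with the study's zone genes. Depth also moved with the zone score in nuclei. How many of all genes lay in opposite directions was not counted. The difference between nuclei and sections was not tested, and strain, assay and animal differ between them.

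Scd was 3.01 times as high in the LEW as in the DA immune-enriched library, whereas both LEW TLH libraries lay below both DA TLH libraries. This difference was not tested, since the immune-enriched fraction has 1 library per strain.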

How the results depend on the processing

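Of 839 values of the 10 genes recomputed under alternatives, 717 were counted as unchanged, 42 passed the threshold only under the alternative, 31 only before it, 45 changed sign, and 4 with no test moved. Unchanged meant the same direction and side of the threshold, except for single Visium sections, which have no test. Those were judged by their distance from the pooled value, so that Elovl6 (0.041 pooled, -0.057 in 1 section) counted as unchanged. The cause of these changes was not tested. The number of the 10 genes called for strain in nuclei was 0, against 1 with DESeq2, 1 with no filter on low counts and 1 with the replicate block, and 0 to 1 with a library left out. For strain in TLH cells it was 1, against 4 with DESeq2, 5 with no filter, 2 with clusters named at a fold of 1.5, 2 with LEW cells of at least 1500 UMIs, and 0 to 1 with a library left out. The replicate block called 1, Srebf1 (0.967, adjusted p = 0.0402) in place of Acly (0.733, adjusted p = 0.0688), and the crossed pairing, chosen after seeing the data, called 3. For zone in nuclei it was 1, against 2 with DESeq2, 4 with no filter, 2 at a naming fold of 1.5, 4 with the study's zone genes, 2 with nuclei thinned to 1000 UMIs, 3 within depth groups, and 0 to 3 with a library left out. For zone by strain it was 4, against 2 with DESeq2, 0 with the study's zone genes, 0 within depth groups, and 0 to 6 with a library left out. For zone on Visium it was 8, against 3 with DESeq2.

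The 5 platform calls remained at 5 to 6 with a library left out, and strain by platform at 0. Over all genes, calls for strain in nuclei went from 101 to 232 with DESeq2, 482 with no filter, 263 with the replicate block, 66 with stricter nuclei, and 71 to 270 with a library left out. Those in TLH cells went from 421 to 1148 with no filter, 968 at a naming fold of 1.5, 213 with the replicate block, 650 with the crossed pairing, and 69 to 376 with a library left out. Those for zone in nuclei went from 417 to 768 with DESeq2, 1555 with no filter, 839 thinned, 1146 within depth groups, and 90 to 980 with a library left out. Those for zone by strain went from 1166 to 631 with DESeq2, 132 with the study's zone genes, 230 within depth groups, and 12 to 2665 with a library left out, and those on Visium from 1440 to 374 with DESeq2. Same-numbered libraries deviated together only weakly (r = 0.0856 in nuclei, -0.108 in TLH cells, 2 pairs each). A single correlation over genes per platform cannot show whether same-numbered libraries shared a day or a batch.

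Without a filter, Scd for strain in nuclei was 0.01 and Srebf1 for strain by platform -0.055. With stricter nuclei Scd was 0.238. With the highest Scrublet scores left out, Acaca for strain in TLH cells was -0.06, Srebf1 for strain by platform -0.024 and Elovl6 for zone by strain 0.07. At a naming fold of 1.5, Fads1 in TLH cells was -0.026 and Srebf1 for strain by platform -0.242. With the study's zone genes, Acaca was -0.01 and Fads1 0.612 for zone in nuclei, Srebf1 0.051 and Fads2 -0.214 for zone by strain, and Elovl6 -0.13 on Visium. Thinning gave Srebf1 0.034 and Elovl6 0.798, and depth groups Fads2 -0.088, for zone by strain. On Visium Elovl6 was -0.002 within depth groups and -0.152 with spots split at the median score.

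With 1 library left out, strain in nuclei ranged from -0.305 to 0.285 for Scd, from -0.025 to 0.394 for Thrsp and from -0.251 to 0.72 for Me1, and strain in TLH cells from -0.056 to 0.822 for Fasn, from -0.579 to 0.525 for Acaca and from -0.433 to 0.075 for Me1. Strain by platform ranged from -0.73 to 0.482 for Srebf1 (-0.23 without TLH DA-2, -0.553 without TLH LEW-1 and -0.264 without nuclei LEW-2), from -0.011 to 0.529 for Thrsp, from -0.329 to 0.586 for Fasn (-0.171 without nuclei DA-2), from -0.14 to 1.013 for Acaca, from -1.461 to 0.105 for Elovl6 (0.02 without TLH LEW-2), from -0.054 to 0.853 for Fads2, from -0.889 to 0.074 for Me1 and from -0.009 to 0.477 for Acly. TLH cells against nuclei ranged from -0.084 to 0.417 for Scd (-0.027 without nuclei DA-1) and from -0.625 to 0.015 for Elovl6 (0.014 without TLH LEW-2), and zone by strain from -0.255 to 0.091 for Srebf1 and from -0.468 to 1.232 for Fads2. Leaving out a section left no test.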
